A study of Mus musculus with 8 samples.

Results

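The contactins and the L1 family are the immunoglobulin-type adhesion molecules of the axon surface, and their transcripts were counted by bulk RNA sequencing of dorsal root ganglia (DRG), the ganglia of the body's somatosensory neurons. The set is defined by gene family, with earlier results of these data known when it was chosen: the 6 contactins (Cntn1 to Cntn6) and the 4 members of the L1 family (L1cam, Chl1, Nrcam and Nfasc), which makes 10 of the 55414 genes listed per library. All 10 passed the filter on low counts, as did 17721 genes in all, and the lowest count of any of them in a library was 167 reads, for Cntn5.

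The ganglia were dissected from mouse embryos at E18.5, and GEO's labels describe the cells as neurons together with glia. In AD1 OE embryos (AdvillinCre/+;Rosa26Dach1/+, 4 libraries), Cre recombinase is produced from the Advillin gene, which is active in postmitotic somatosensory neurons, and removes a stop cassette in front of a Dach1-IRES-EGFP copy at Rosa26. Control embryos (Advillin+/+;Rosa26Dach1/+, 4 libraries) carried the same heterozygous Rosa26Dach1 allele without Cre. The Rosa26Dach1 mice were of mixed C57Bl/6J and CD1 background, 1 copy of Avil in AD1 OE carries the Cre insertion, and the overexpression acts in neurons while glia and connective tissue of the ganglion were sequenced along with them. The comparison asks how the adhesion molecules are transcribed when Dach1, a nuclear regulator of transcription, is produced across the sensory neurons late in gestation. Nothing in the labels says how embryos or litters map to libraries, so p-values measure the spread between these libraries.

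Contactins are tethered to the outer membrane by a lipid anchor and have no cytoplasmic part, so they act through partners in the same membrane, above all the contactin-associated proteins (the Caspr family). The L1 family proteins span the membrane and bind ankyrin and spectrin on the inside and each other, contactins, integrins and semaphorin receptors on the outside. In peripheral nerve both families take part in axon growth, fasciculation and the later assembly of the node of Ranvier and its flanking domains.

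A strict and a looser threshold are used below with the edgeR quasi-likelihood test with Benjamini-Hochberg adjustment over all tested genes. A gene was called where its adjusted p was under 0.005 and its absolute log2 fold change over 0.25, and a looser threshold was an adjusted p under 0.05 with any fold change. Library totals ran from 22339059 to 44025625 counts. Levels are given as CPM, the count scaled to a common library size. Dach1 averaged 95.9 CPM ± 5.28 (SD, n = 4) with Cre and 32.6 CPM ± 1.64 without, a log2 fold change of 1.56 with an adjusted p of 1.77e-08, and Avil was lower by 0.94 on the log2 scale (adjusted p = 1.98e-07). Sensory neuron markers were abundant in every library, with a summed level of 12312 to 13128 CPM in AD1 OE and 12797 to 13396 CPM in Control over 11 genes. The libraries were not balanced for sex as read from Xist and Y-linked genes, with 1 of 4 AD1 OE libraries and 3 of 4 Control libraries female.

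Among the 10 genes, 2 were called and both were lower in AD1 OE: Cntn4, at 49.4% of its Control level, and Chl1, at 57.7%. This compares with 1.78% of all tested genes called lower. By edgeR and by DESeq2 alike 0 members were called higher, a call that edgeR made for 0.784% of all tested genes, and 1 of the 10, Cntn2, was higher at an unadjusted p under 0.05. At the looser threshold by edgeR 5 of the 10 were lower (Cntn1, Cntn3, Cntn4, Cntn6 and Chl1), against 4.14% of all tested genes, and 0 were higher, against 2.42%. These are the same 5 genes in which every AD1 OE library lay below every Control library, a pattern seen in 7.26% of all tested genes, and no member showed the opposite separation, seen in 5.69%. The other 5 (Cntn2, Cntn5, L1cam, Nrcam and Nfasc) had overlapping groups. The median log2 fold change of the 10 was -0.10, beside 0.0018 over all tested genes. In bulk RNA a lower level in each cell and fewer cells that express a gene cannot be told apart, here and in all that follows.

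**Figure D1:**
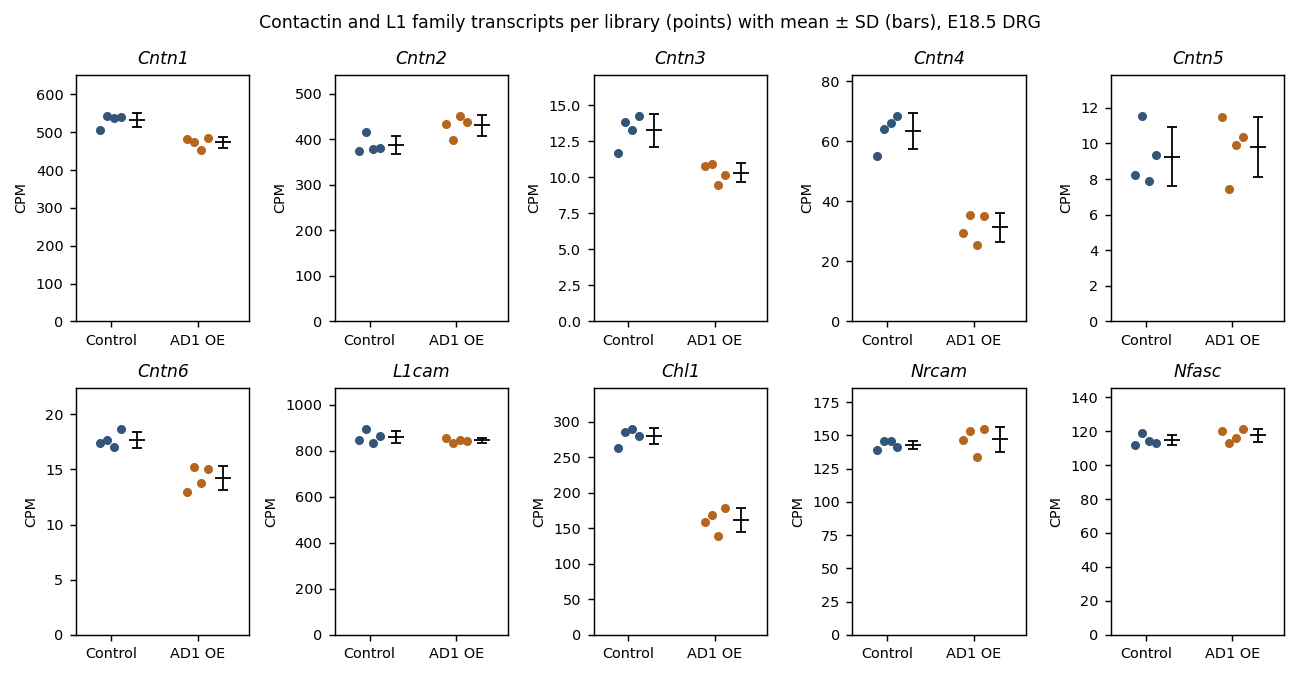
Each panel plots 1 gene in CPM on an axis from 0, with 1 point per library (blue, Control; brown, AD1 OE) and the group mean ± SD (n = 4) as a bar beside the points. The groups lie apart for Cntn4 and Chl1 by 19.7 and 84.5 CPM between the nearest libraries. They also lie apart for Cntn1 (by 20.5 CPM, narrow beside its level) and narrowly for Cntn3 and Cntn6, and overlap in the other 5 panels.

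Both genes called, Cntn4 and Chl1, lie in a single run of adhesion genes on mouse chromosome 6. In the annotation Cntn3, Chl1, Cntn6 and Cntn4 follow each other in that order with 0 other protein-coding genes between them, Cntn3 on the minus strand and the other 3 on the plus strand. All 4 were lower in AD1 OE at the looser threshold, and no other contactin or L1 family gene is on this chromosome. The promoter windows of these 4 genes are shown because the genes lie side by side and were all lower. They are the first RefSeq windows on GRCm38.p6, from 250 bases before to 50 bases after the annotated start, written 5′ to 3′ on the gene's strand, and the capitals mark the E-box letters CANNTG, the core bound by basic helix-loop-helix factors. They lie at chr6:102464618-102464917 on the minus strand for Cntn3, and on the plus strand at chr6:103510626-103510925 for Chl1, chr6:104492794-104493093 for Cntn6 and chr6:106118515-106118814 for Cntn4.
Cntn3: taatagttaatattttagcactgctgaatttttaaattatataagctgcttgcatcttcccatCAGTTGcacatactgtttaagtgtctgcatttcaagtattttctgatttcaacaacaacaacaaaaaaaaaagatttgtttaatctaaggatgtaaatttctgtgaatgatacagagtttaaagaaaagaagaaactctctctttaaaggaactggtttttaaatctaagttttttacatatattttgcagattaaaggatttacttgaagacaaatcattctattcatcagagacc
Chl1: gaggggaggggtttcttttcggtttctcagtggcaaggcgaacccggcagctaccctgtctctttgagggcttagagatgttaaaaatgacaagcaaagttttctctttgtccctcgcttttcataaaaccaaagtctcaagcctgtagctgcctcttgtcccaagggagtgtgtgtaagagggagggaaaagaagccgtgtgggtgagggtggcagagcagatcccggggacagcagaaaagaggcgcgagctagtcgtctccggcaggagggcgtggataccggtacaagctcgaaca
Cntn6: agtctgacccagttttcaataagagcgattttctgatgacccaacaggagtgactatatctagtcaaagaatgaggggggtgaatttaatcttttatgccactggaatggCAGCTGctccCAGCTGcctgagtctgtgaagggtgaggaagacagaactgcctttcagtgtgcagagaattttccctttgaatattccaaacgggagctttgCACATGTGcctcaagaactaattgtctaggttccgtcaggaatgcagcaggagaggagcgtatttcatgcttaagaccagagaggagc
Cntn4: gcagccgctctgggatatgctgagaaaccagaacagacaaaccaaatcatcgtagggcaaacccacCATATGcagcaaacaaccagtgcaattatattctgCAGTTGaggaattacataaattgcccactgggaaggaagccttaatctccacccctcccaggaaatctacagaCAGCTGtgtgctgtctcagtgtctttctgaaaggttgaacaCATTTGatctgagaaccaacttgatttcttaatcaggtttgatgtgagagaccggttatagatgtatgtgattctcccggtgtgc

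The Cntn3 window was 27.7% GC with 0 CpG dinucleotides, the Chl1 window 53.7% GC with 13, the Cntn6 window 46.3% GC with 4 and the Cntn4 window 45.0% GC with 4, while the median over all promoters was 52.7% GC with 7 CpG. CANNTG, which reads the same on both strands, occurred 0 times in the Chl1 window, 1 time for Cntn3 and 4 times each for Cntn6 and Cntn4, with a pair of overlapping matches in the Cntn6 window. It was present in 72.3% of the 32851 windows of the same length, so its presence is the common case. TAATTA, a core bound by many homeodomain factors, and TATAAA, the TATA box, were searched on both strands too, and occurred in 0 of these 4 windows, against 5.29% and 13.6% of all windows. No match overlapped a match of another motif. Cntn4 has a second RefSeq start, whose window held 12 CpG, 3 CANNTG and 1 TAATTA. A missing match says only that these letters are not in the window.

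Cntn4, a contactin that guides axons to their targets in the olfactory and visual systems and binds amyloid precursor protein, changed most. Its level was 29.5, 35.4, 25.5 and 35.2 CPM in AD1 OE libraries 1 to 4, and 55.1, 64.0, 66.3 and 68.6 CPM in Control libraries 1 to 4. The lowest Control library was thus 19.7 CPM above the highest AD1 OE library. The means were 31.4 CPM ± 4.80 and 63.5 CPM ± 5.88 (SD, n = 4), and the log2 fold change was -1.02 ± 0.10 (SE) with an adjusted p of 6.29e-05. Cntn4 was called lower in each of the 8 fits that left out 1 library.

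Chl1 (close homolog of L1), a transmembrane L1 family protein that joins neuropilin in semaphorin signalling and is present on growing sensory axons, was at 159, 169, 139 and 179 CPM in AD1 OE and at 263, 286, 290 and 280 CPM in Control. No AD1 OE library came within 84.5 CPM of a Control library. Mean levels were 161 CPM ± 16.9 and 280 CPM ± 11.7, with a log2 fold change of -0.79 ± 0.07 and an adjusted p of 1.75e-05. In AD1 OE the same library, replicate 3, was the lowest for both Cntn4 and Chl1, and in Control replicate 1 was the lowest for both. Chl1 also remained called in all 8 fits without 1 library.

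Cntn6, a contactin that binds Notch1 and associates with CHL1 in the membrane, was much less abundant. It was at 12.9, 15.2, 13.7 and 15.0 CPM in AD1 OE and at 17.4, 17.7, 17.0 and 18.7 CPM in Control, so the groups were 1.78 CPM apart. The log2 fold change was -0.32 ± 0.07 with an adjusted p of 0.0143, past the looser threshold and short of a call. That threshold was missed without AD1 OE replicate 1 (adjusted p = 0.0540) or Control replicate 4 (adjusted p = 0.0555).

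Cntn3, the contactin that starts the run, had AD1 OE values of 10.8, 10.9, 9.45 and 10.1 CPM and Control values of 11.7, 13.8, 13.3 and 14.3 CPM. Only 0.739 CPM separated the highest AD1 OE library from the lowest Control library, which was again replicate 1. Its log2 fold change was -0.36 ± 0.08 with an adjusted p of 0.0163. Without AD1 OE replicate 4, Control replicate 2 or Control replicate 4 the adjusted p passed 0.05, at 0.0517, 0.0574 and 0.0613. The fit with DESeq2 called both Cntn3 (adjusted p = 0.00261) and Cntn6 (adjusted p = 0.00178). That makes 4 called genes of the 10 with that tool, all 4 of them in the chromosome 6 run. Over the whole series DESeq2 called 432 genes lower, against 316 by edgeR. The 1.78% of tested genes called lower is the edgeR share and is not the background of the DESeq2 count.

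The genes around the run were then compared, a choice made after the values of the 4 genes had been seen. Of the 6 nearest tested protein-coding genes on each side, 0 of 12 were called in either direction by edgeR or by DESeq2, 2 (Gxylt2 and Lrrn1, both higher) had an unadjusted p under 0.05, and their log2 fold changes ran from -0.08 to 0.29 with a median of 0.03. Lrrn1, which encodes a leucine-rich repeat neuronal protein and lies beyond Cntn4, was the 1 gene of the 12 past the looser threshold, and it was higher (log2 fold change 0.19, adjusted p = 0.0217). With 1.78% of all tested genes called lower and 4.14% lower at the looser threshold, 0 of 12 is near the background. The Rosa26 locus that carries the Dach1 copy is also on chromosome 6, at 6.88 Mb from Cntn4, 8.39 Mb from Cntn6, 9.44 Mb from Chl1 and 10.7 Mb from Cntn3 in the annotation. Both groups carried that allele. Of the 147 other tested genes within 10 Mb of Rosa26, 1 was called lower and 1 higher, near the 1.78% and 0.784% of all tested genes. Whether the shared position has a part in the lower levels was not tested.

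**Figure D2:**
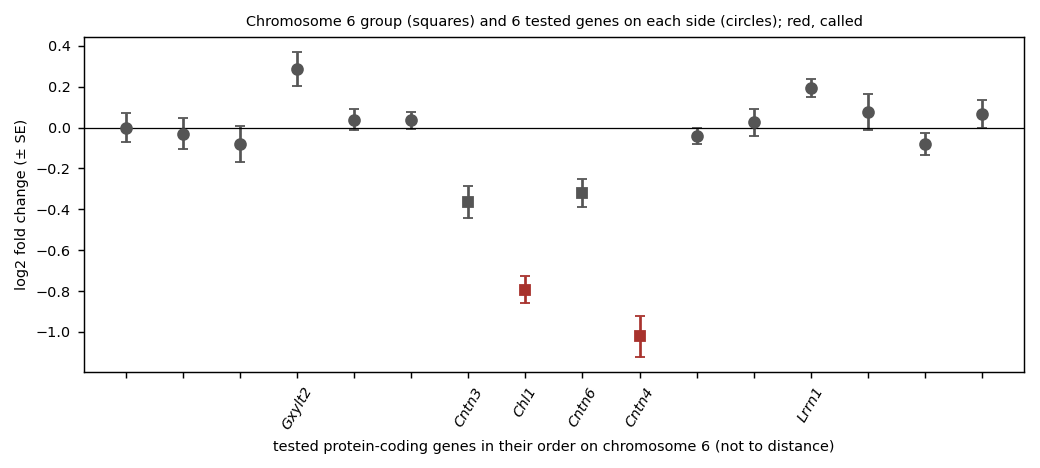
The vertical axis gives the log2 fold change of AD1 OE relative to Control ± SE, and the horizontal axis the order of the tested protein-coding genes on chromosome 6, not their distance, with labels for the genes named in the text. The 4 adhesion genes (squares) lie between -1.02 and -0.32, with Chl1 and Cntn4 called (red), while the 12 flanking genes (circles) lie between -0.08 and 0.29.

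Cntn1 and Cntn2 are the best known contactins of myelinated axons. Cntn1 pairs with Caspr at the paranode, where it faces the glial isoform of neurofascin. Its transcripts were at 481, 474, 454 and 486 CPM in AD1 OE and at 506, 544, 538 and 541 CPM in Control. All AD1 OE libraries were below all Control libraries, but the difference was small, with AD1 OE at 89.0% of Control. The log2 fold change of -0.17 ± 0.04 had an adjusted p of 0.0359. This passed the looser threshold in 1 of the 8 fits that left out a library, the one without Control replicate 1, and reached an adjusted p of 0.115 without Control replicate 4. It also missed the threshold when libraries were scaled by their size alone (adjusted p = 0.0544).

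Cntn2, which encodes TAG-1, binds in trans to itself and pairs with Caspr2 at the juxtaparanode. It was at 433, 399, 452 and 438 CPM in AD1 OE and at 375, 417, 379 and 380 CPM in Control. AD1 OE replicate 2 lay below Control replicate 2, so the groups overlapped. The log2 fold change was 0.15 ± 0.05 with an adjusted p of 0.123 by edgeR, which passed neither threshold. By DESeq2 the log2 fold change was also 0.15, with an adjusted p of 0.0356, past the looser threshold but not called. Cntn2 and Cntn1 thus leaned apart, and the ratio of Cntn2 to Cntn1 counts ran from 0.843 to 0.996 in AD1 OE and from 0.703 to 0.766 in Control. The groups of this ratio, which was formed after the values were seen and has no test, did not overlap.

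Cntn5, a contactin of auditory and other sensory pathways, had the widest spread of the 10 relative to its mean. Its AD1 OE values were 11.5, 7.44, 9.91 and 10.4 CPM and its Control values 8.23, 11.6, 7.90 and 9.35 CPM. Each group reached nearly as low and as high as the other. The log2 fold change was 0.08 ± 0.14 with an adjusted p of 0.812. Its exons share 290 bases, 6.40% of their length, with the antisense gene Gm32710, and as the strand setting of the counting is not stated, reads of the overlap cannot be assigned with certainty.

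The other 3 L1 family genes gave no call and overlapping groups. L1cam, the founding member and a promoter of axon growth and bundling, ranged from 832 to 854 CPM in AD1 OE and from 834 to 894 CPM in Control, with a log2 fold change of -0.03 ± 0.04 (adjusted p = 0.794). Its AD1 OE libraries were the tightest relative to their mean, at 844 CPM ± 9.34, and 1.36% of its exon bases are shared with Arhgap4. Nrcam, which helps to gather sodium channels at the forming node, ranged from 134 to 155 CPM in AD1 OE and from 139 to 146 CPM in Control (log2 fold change 0.04 ± 0.04, adjusted p = 0.691). Nfasc, whose neuronal and glial isoforms stand on either side of the axon-glia contact and are not told apart by counts per gene, ranged from 113 to 121 CPM in AD1 OE and from 112 to 119 CPM in Control (log2 fold change 0.04 ± 0.04, adjusted p = 0.631). Within the L1 family the change was therefore seen in Chl1 and was not detected in the other 3.

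**Figure D3:**
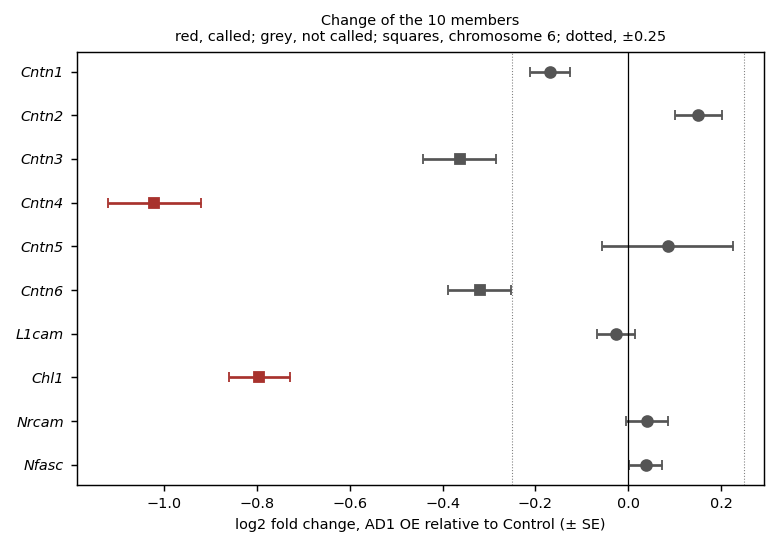
The horizontal axis gives the log2 fold change of AD1 OE relative to Control ± SE from edgeR, with 1 row per gene. Cntn4 at -1.02 and Chl1 at -0.79 are called (red), the 4 chromosome 6 genes are drawn as squares, and Cntn2 at 0.15 is the highest value.

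Levels of different genes were compared per length, as FPKM over the union of annotated exons. L1cam was the most abundant of the 10 in Control at 117 FPKM ± 3.54 (SD, n = 4), followed by Cntn1 at 56.4 ± 1.86, Cntn2 at 41.7 ± 2.09 and Chl1 at 22.8 ± 0.951 FPKM. Nrcam stood at 10.7 ± 0.240, Nfasc at 8.10 ± 0.207 and Cntn4 at 7.48 ± 0.693 FPKM. Cntn6 at 2.72 ± 0.108, Cntn5 at 2.04 ± 0.364 and Cntn3 at 1.97 ± 0.170 FPKM were the scarcest. Neighbours in this order did not overlap between libraries of Control except Nfasc with Cntn4 and Cntn5 with Cntn3.

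The order of the 10 means was the same in AD1 OE, although the spacing was not. Chl1 at 13.1 FPKM ± 1.38 came down to the range of Nrcam at 11.0 ± 0.713, and Cntn4 at 3.70 ± 0.566 no longer overlapped Nfasc at 8.31 ± 0.269. Cntn6 at 2.19 ± 0.170 overlapped Cntn5 at 2.16 ± 0.375, and Cntn1 at 50.2 ± 1.51 overlapped Cntn2 at 46.3 ± 2.41 FPKM. The choice of length matters for the close neighbours. With the longest transcript as length, Nrcam stood above Chl1 in AD1 OE (23.4 against 21.3 FPKM), Cntn4 above Nfasc in Control (12.1 against 11.8 FPKM) and Cntn3 above Cntn5 in Control (2.50 against 2.21 FPKM).

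**Figure D4:**
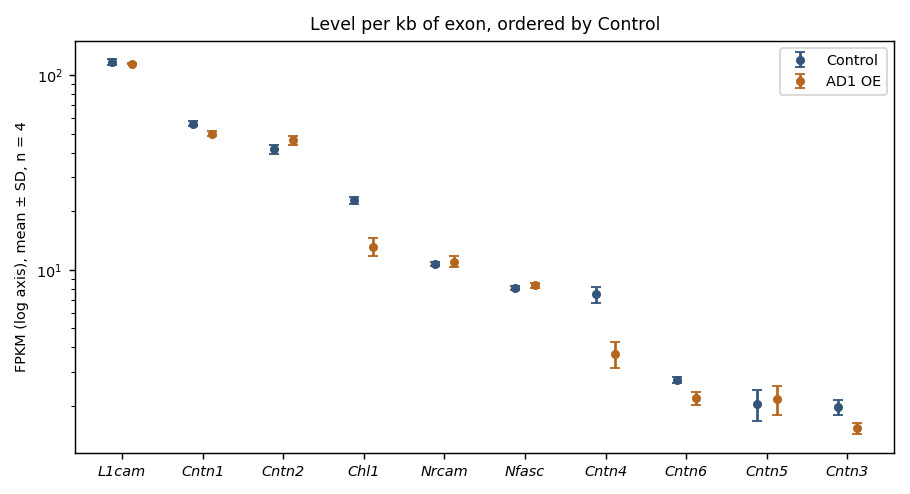
The vertical axis is a log axis of FPKM (mean ± SD, n = 4) and the genes run from the highest to the lowest Control level, with Control in blue and AD1 OE in brown. The levels span from 117 FPKM for L1cam to 1.97 FPKM for Cntn3 in Control, and the widest gaps between the groups are those of Chl1 (22.8 and 13.1 FPKM) and Cntn4 (7.48 and 3.70 FPKM).

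Within each family these levels add up to a different mix. Chl1 made up 14.4% ± 0.545 of the summed L1 family level in Control and 8.90% ± 0.853 in AD1 OE, and L1cam 73.8% ± 0.721 and 78.0% ± 1.26. Counted in reads, Chl1 was 1.96 ± 0.045 times Nrcam in Control and 1.10 ± 0.048 times Nrcam in AD1 OE. Among the contactins, Cntn4 made up 6.66% ± 0.482 of the summed level in Control and 3.49% ± 0.546 in AD1 OE, while Cntn1 and Cntn2 together held most of the sum in both groups. Their own shares were 50.3% ± 0.783 and 37.1% ± 1.03 in Control, and 47.3% ± 1.30 and 43.6% ± 1.83 in AD1 OE. The shares within a family depend on each other, and they are given without a test.

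The direction of the Cntn4 and Chl1 differences was the same in libraries of both sexes. The 1 female AD1 OE library was replicate 3, the lowest for both genes. It also had the highest skeletal muscle marker sum (722 CPM), so in AD1 OE sex and muscle tissue cannot be told apart. Between the 1 female AD1 OE library and the 3 female Control libraries the log2 ratio was -1.28 for Cntn4 and -1.01 for Chl1, and between the 3 male AD1 OE libraries and the 1 male Control library it was -1.04 and -0.73. With sex as a term in the fit, the log2 fold changes were -1.15 for Cntn4 (adjusted p = 1.43e-05) and -0.87 for Chl1 (adjusted p = 1.51e-05), and both stayed called. In that fit Cntn1, Cntn3 and Cntn6 had adjusted p-values of 0.0283, 0.00838 and 0.0160, and L1cam, the X-linked gene of the set, was at -0.03 (adjusted p = 0.864). A difference of the genotype effect between the sexes, which was fitted after the data had been seen, rests on 1 library in 1 arm of each sex, and the log2 difference of male from female was 0.23 ± 0.17 for Cntn4 and 0.27 ± 0.12 for Chl1. For Nrcam, which was not called, it was 0.20 ± 0.09, with log2 ratios of -0.10 between female and 0.10 between male libraries. With 1 library in an arm these differences are given as sizes only, and no conclusion is drawn from them.

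Of 57 tested marker genes of the cell types that a DRG sample could hold, 0 were called by edgeR or DESeq2. With 1.78% of all tested genes called lower and 0.784% higher by edgeR, 0 of 57 is near the background. An unadjusted p under 0.05 was found for 14 of the 57, and no share over all tested genes is given beside it. Zic1 alone among the spinal cord markers was abundant in every library (32.6 to 51.5 CPM), and it was left out of their sum after its values were seen. The other 11 spinal cord markers summed to 5.35 to 10.3 CPM in AD1 OE and 4.77 to 28.4 CPM in Control, and 2 of them (Lbx1 and Otp) were at 0 in at least 1 library. The highest sum, 28.4 CPM, was in Control replicate 1, the Control library with the lowest Cntn4, Chl1, Cntn3 and Cntn1, and also the lowest Cntn2, Nrcam and Nfasc. The 8 skeletal muscle markers summed to 130 to 722 CPM in AD1 OE and 159 to 440 CPM in Control. The highest sum was in AD1 OE replicate 3, the 1 female library of that group. That library was the lowest of AD1 OE for Cntn4, Chl1, Cntn1, Cntn3 and Nrcam, and the highest for Cntn2. Without AD1 OE replicate 3 or Control replicate 1, Cntn4 and Chl1 were still called. The 9 Schwann and satellite glia markers covered 1306 to 1628 CPM in AD1 OE and 1329 to 1617 CPM in Control, and the 6 fibroblast markers 5777 to 6542 CPM and 4947 to 6065 CPM, in both cases with overlapping sums. Of the 14 markers at an unadjusted p under 0.05, all named after their values were seen, 6 were higher and 8 lower in AD1 OE. Higher were Elavl4 and Rbfox3 (sensory neuron), Zic1 (spinal cord) and Col1a2, Col3a1 and Pdgfra (fibroblast). Lower were Snap25 (sensory neuron), Slc32a1, Gad2 and Olig1 (spinal cord), Fabp7 and S100b (glia), Dcn (fibroblast) and C1qb (macrophage). Pdgfra was higher in every AD1 OE library (93.7 to 112 CPM against 84.1 to 92.4 CPM). Elavl4 was too, narrowly (375 to 417 CPM against 338 to 374 CPM). Fabp7 was lower in every AD1 OE library (209 to 238 CPM against 247 to 328 CPM). Sums for endothelium (244 to 294 and 257 to 264 CPM), macrophages (67.9 to 79.9 and 75.6 to 84.9 CPM) and erythroid cells (79.7 to 280 and 76.9 to 138 CPM) overlapped as well. The part of these cells in the member values was not tested.

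The proteins that work with the 2 families were covered by 5 lists with 51 tested genes, of which 5 were called lower and 1 higher, or 9.80% and 1.96%, beside 1.78% and 0.784% of all tested genes. The contactin-associated proteins, the Caspr family of neurexin-like membrane proteins, held 3 of the 5 lower calls among 7 genes (42.9%, beside the same 1.78%). Their median log2 fold change was -0.30. The lists of anchors, surface partners, proteases and node channels had medians between 0.0072 and 0.05.

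Cntnap4, which encodes a Caspr protein best known from synapses of interneurons and of dopamine neurons, was at 107, 98.6, 93.2 and 107 CPM in AD1 OE and at 130, 137, 130 and 128 CPM in Control. The groups were clearly apart, with a log2 fold change of -0.37 ± 0.05 and an adjusted p of 4.71e-04. Cntnap5c showed the largest fold change of the family at -0.75 ± 0.11 (adjusted p = 0.00117), with means of 7.63 and 12.9 CPM in AD1 OE and Control and ranges of 5.97 to 8.64 and 11.1 to 13.6 CPM. Cntnap5a fell from 48.7 CPM ± 1.54 to 35.1 CPM ± 4.41, a log2 fold change of -0.47 ± 0.08 (adjusted p = 0.00314). The 2 Cntnap5 genes have close paralogs, so reads that match more than 1 of them leave their values uncertain, and Cntnap5b was at 0.20 ± 0.16 (adjusted p = 0.557).

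Of the Caspr proteins that pair with the major contactins at myelinated axons, Cntnap1 (Caspr, the partner of Cntn1) had means of 259 CPM ± 10.8 and 264 CPM ± 11.3 in AD1 OE and Control, with a log2 fold change of -0.03 ± 0.04 (adjusted p = 0.795). Cntnap2 (Caspr2, the partner of Cntn2) was at 136 CPM ± 9.49 and 167 CPM ± 11.4. Its log2 fold change of -0.30 ± 0.06 had an adjusted p of 0.00795, past the looser threshold but not called. Cntnap3 was at 0.10 ± 0.07 (adjusted p = 0.466). Over the fits that left out 1 library, Cntnap4 was called in 8 of 8. Cntnap5c was called in 4 of 8, and was lost without AD1 OE replicate 2 or Control replicates 2, 3 or 4, with adjusted p-values up to 0.00608. Cntnap5a was called in 1 of 8, the fit without AD1 OE replicate 3, and reached an adjusted p of 0.0117 in the others.

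On the inside of the membrane, ankyrins, spectrins and their relatives anchor L1 family proteins to the cytoskeleton. By edgeR and by DESeq2 0 of the 15 genes were called, and 3 had an unadjusted p under 0.05. As edgeR called 1.78% of all tested genes lower and 0.784% higher, 0 of 15 is near the background. The most abundant per length were Sptan1 (log2 fold change 0.07 ± 0.05, adjusted p = 0.496), Sptbn1 (0.09 ± 0.05, adjusted p = 0.356) and Msn (-0.09 ± 0.04, adjusted p = 0.25), which encode spectrin chains and moesin.

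Outside the membrane, 1 of 14 tested surface and matrix partners was called, and it was lower (7.14%, beside 1.78% of all tested genes). Alcam, an immunoglobulin-type adhesion protein that binds L1cam, was at 406, 423, 382 and 387 CPM in AD1 OE and at 498, 539, 517 and 523 CPM in Control. The groups did not overlap, and the log2 fold change was -0.38 ± 0.05 (adjusted p = 3.14e-04), a call that held in 8 of 8 fits without 1 library. The amyloid precursor relatives Aplp1 (-0.09 ± 0.05, adjusted p = 0.411) and Aplp2 (0.02 ± 0.04, adjusted p = 0.835) and the integrin subunit Itgb1 (0.02 ± 0.05, adjusted p = 0.898) were the most abundant of the list and were not called. Ptprg, a receptor phosphatase that binds several contactins, was not analysed here.

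The 4 proteases that cut L1 family proteins from the cell surface or within the membrane gave 0 calls by edgeR. They had 1 unadjusted p under 0.05, and 0 calls by DESeq2 as well. Beside 1.78% of all tested genes called lower and 0.784% higher by edgeR, 0 of 4 is near the background. Adam10 was at 0.10 ± 0.04 (adjusted p = 0.240) and Bace1 at -0.02 ± 0.04 (adjusted p = 0.844).

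Among the 11 channels and scaffolds of the node and juxtaparanode, 1 was called in each direction, or 9.09% each way beside 1.78% lower and 0.784% higher over all tested genes. Dlg2, a membrane scaffold that gathers potassium channels beside Caspr2, was at 25.5, 25.9, 23.1 and 26.8 CPM in AD1 OE and at 33.2, 35.3, 34.1 and 34.8 CPM in Control. All 4 AD1 OE libraries were lower, with a log2 fold change of -0.44 ± 0.05 (adjusted p = 3.86e-04) that was called in 8 of 8 fits without 1 library. Kcna2, a juxtaparanodal potassium channel, was at 254, 262, 230 and 253 CPM in AD1 OE and at 182, 210, 204 and 201 CPM in Control. It was higher in every AD1 OE library, with a log2 fold change of 0.32 ± 0.05 (adjusted p = 0.00221). The Kcna2 call was present in 3 of 8 fits without 1 library and was lost without AD1 OE replicates 1, 2 or 4 or Control replicates 3 or 4 (adjusted p up to 0.00986), and with sex as a term (adjusted p = 0.0125).

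Of the other node genes, Kcnab2, a cytoplasmic subunit of these potassium channels, was the most abundant per length and was not called (-0.08 ± 0.05, adjusted p = 0.451). Kcna1 at 0.27 ± 0.07 (adjusted p = 0.0291), Kcnq3 at 0.22 ± 0.05 (adjusted p = 0.0291) and Adam22 at 0.18 ± 0.04 (adjusted p = 0.0281), named after their values were seen, were higher at the looser threshold.

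**Figure D5:**
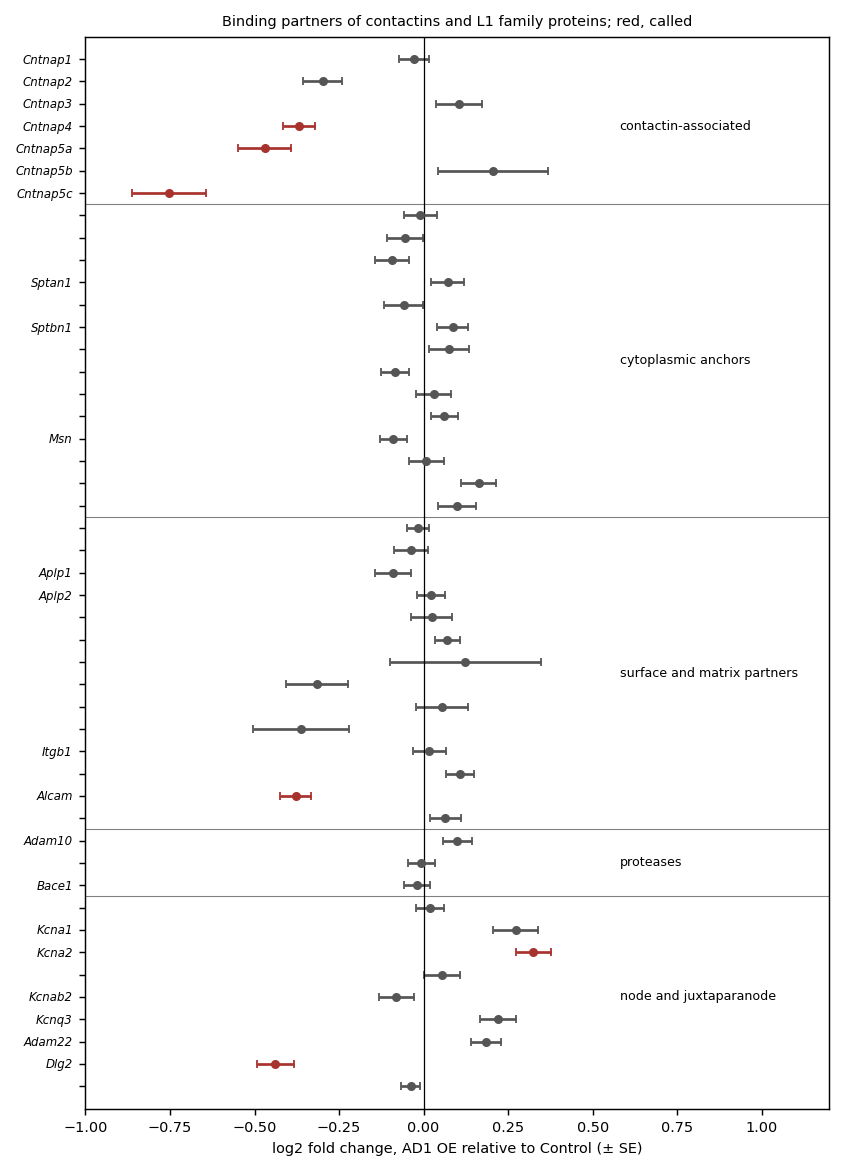
Each row is a partner gene, 47 of the 51 tested, grouped by list and labelled where the text names the gene, and the horizontal axis gives the log2 fold change of AD1 OE relative to Control ± SE. The 6 called genes are red: Cntnap5c at -0.75, Cntnap5a at -0.47, Dlg2 at -0.44, Alcam at -0.38 and Cntnap4 at -0.37 to the left of 0, and Kcna2 at 0.32 to the right.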

How the data were processed

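Total RNA from E18.5 DRG was made into 8 libraries with a stranded mRNA kit, 4 per genotype, grouped by the titles and genotypes in GEO's labels. Per the submitters' processing notes, the authors demultiplexed with bcl2fastq 2.20.0.422, aligned to GRCm39 with STAR 2.7.8a and counted with featureCounts 2.0.1. They deposited raw counts per Ensembl gene, neither normalized nor pooled, 1 file per library. The strand setting of the counting is not given in the sources used here. Each file listed 55414 IDs (52081 with a symbol in the reference table) and 0 lines that name no gene, and 0 columns of samples were left unused.

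Counts were fitted in R 4.3.3 with edgeR 4.0.16 (filterByExpr on the groups, TMM, glmQLFit and glmQLFTest on genotype), and p-values were adjusted by Benjamini-Hochberg over the 17721 tested genes. The call thresholds (adjusted p under 0.005, absolute log2 fold change over 0.25) are those the study applied to this comparison in its results, while its methods state 0.05 for the adjusted p with a log2 fold change beyond 1 in either direction, tried here as an alternative. The study fitted DESeq2, run here as an alternative (1.42.0). CPM used TMM-scaled library sizes. FPKM and positions used GENCODE M21 on GRCm38, another build than the counts, for names, order, lengths and overlaps. RefSeq promoter windows (GRCm38.p6) matched 10 of 10 members.

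The members, partner lists and markers were chosen with earlier results of these data known. Of 129 list symbols, 128 had an ID. All members are named, with the called partners and up to 3 more of each list with the highest level per length, except 4 partner genes that are not reported here singly, and any other gene is named as chosen after its values were seen. Alternatives were DESeq2, limma-voom (limma 3.58.1), RLE, upper-quartile and no composition scaling, 2 other filters, 2 other thresholds, sex, the replicate number as a block and leaving out each library. Robust empirical Bayes and the sex interaction were added after the data were seen. Each library counted as a sample. Replicates of a group differed beyond counting noise (chi-square per degree of freedom 4.34 to 12.2), which cannot by itself show that they are independent. Reads carry no molecular identifiers. The fit was tested on simulated data.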

Additional observations from a re-analysis of the deposited data

Results flagged for a closer look

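Each of the 10 genes was checked in each group for a library that stands apart from the other 3, which makes 20 sets of 4 libraries, and chance flags about 1 in 20 such sets. The Dixon ratio, the gap to the nearest library over the whole range, passed its critical value in 2 sets, both in Control. For Cntn1, Control replicate 1 was lowest at 506 CPM while the other 3 lay between 538 and 544 CPM (ratio 0.847). For Cntn2, Control replicate 2 was highest at 417 CPM while the other 3 lay between 375 and 380 CPM (ratio 0.866). No library of AD1 OE stood apart by this measure for any of the 10 genes. Without Control replicate 1 the log2 fold change of Cntn1 was -0.19 (adjusted p = 0.0196), and without Control replicate 2 that of Cntn2 was 0.19 (adjusted p = 0.0662).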

How the results depend on the processing

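Cntn4 (log2 fold change -1.15 to -0.93, adjusted p up to 4.33e-04) and Chl1 (-0.87 to -0.72, adjusted p up to 1.53e-04) stayed called in all 18 other fits, and 2 members were called in each fit without 1 library (range 2 to 2). DESeq2 called 4 members, adding Cntn3 (-0.36) and Cntn6 (-0.32), with 658 genes (432 of them lower) and 8 partner genes called. Without a low-count filter 747 genes and 10 partner genes passed, with 3 members including Cntn3 (-0.36, adjusted p = 0.00498). At an adjusted p under 0.05 and any fold change, 1161 genes, 5 members and 11 partner genes passed, and with an absolute log2 fold change over 1, 129, 1 (Cntn4) and 0. The count of 0 follows from the fold limit, since the largest partner change was -0.75. Leaving out 1 library gave 289 to 420 called genes against 455 (fewest without AD1 OE replicate 1) and 3 to 6 called partner genes against 6 (3 without AD1 OE replicate 2, Control replicate 3 or Control replicate 4). Members lower at the looser threshold numbered 2 to 5 in these fits, with 2 without Control replicate 4. Cntn5, at 0.08, ran from -0.0051 (without AD1 OE replicate 1, adjusted p = 0.994) to 0.21 (without Control replicate 2) and so reversed in 1 fit. With the replicate number as a block, 348 genes, 2 members and 5 partner genes were called, Kcna2 being lost (adjusted p = 0.00542) and Cntn1 passing 0.05 (adjusted p = 0.0932). Same-numbered libraries correlated at -0.05 to 0.31 in their deviations, and 1 of 4 AD1 OE libraries, replicate 4, correlated best with its own number. Pairing by number was thus not shown, and with 4 libraries per group this check cannot exclude it. Where not stated otherwise, the cause of a change was not tested. The lowest member count was 167 reads, for Cntn5.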

Other observations

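The genes of both families differ widely in the length of chromosome they span in the annotation. Cntn5 at 1244 kb and Cntn4 at 1022 kb are the longest, Cntn3 (410 kb), Cntn6 (371 kb), Cntn1 (291 kb), Nrcam (273 kb), Chl1 (240 kb) and Nfasc (177 kb) follow, and L1cam (42.3 kb) and Cntn2 (33.8 kb) are the shortest. Among all tested genes the share called lower differed with span. It was 0.883% of the 5437 genes under 10 kb and 12.3% of the 220 genes of at least 500 kb. The share called higher was 0.441% and 1.36% in these bins. Of the 1837 genes of 100 to 300 kb, the bin that holds Chl1, 3.76% were called lower and 1.58% higher. Of the 331 genes of 300 to 500 kb, 6.04% were called lower and 3.93% higher. The median log2 fold change was -0.04 in the longest bin and -0.02 in the shortest. The longest member, Cntn5, was at 0.08 and not called, while Cntn4, of similar span, was at -1.02. Among the called partners Dlg2 spans 1973 kb, Cntnap5a 903 kb, Cntnap5c 641 kb, Cntnap4 313 kb and Alcam 205 kb, and Kcna2, the gene called higher, 13.9 kb. The part of gene span in these values was not tested.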
